A study of Mus musculus with 6 samples.

Results

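The 9 genes described here belong to the BCL-2 family, whose proteins decide at the outer mitochondrial membrane whether a cell starts apoptosis. They are Bcl2, Bcl2l1 (which encodes BCL-XL) and Mcl1, whose proteins keep cells alive, Bax and Bak1, whose proteins form the pore that lets cytochrome c out of mitochondria, and Bcl2l11 (BIM), Bad, Bid and Pmaip1 (NOXA), whose proteins carry a BH3 domain and promote death. They were chosen by name as members of the family other than Bbc3, and each had 1 row of its own among the 10041 rows of the deposited expression table. Transcripts were measured by RNA-seq in mouse Th17 cultures, in 3 libraries grown with the vehicle DMSO and 3 grown with oligomycin at 2.5 ng/ml, an inhibitor of the mitochondrial ATP synthase. Both groups began as naive CD4 T cells and were kept for 48 h with plate-bound antibody to CD3e at 10 µg/ml and antibody to CD28 at 1 µg/ml. Their medium held TGF-β1 at 2.5 ng/ml, IL-23 at 10 ng/ml and IL-6 at 20 ng/ml. The comparison asks how the transcripts of Th17 cells depend on oxidative phosphorylation. The sources used here do not give strain, age or the number of animals. The libraries of a group are not stated to come from separate animals or cultures, so the p-values measure the spread between these libraries, which may be technical.

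In a healthy cell the survival proteins hold the BH3-only proteins and the pore formers in check by binding them. Stress or loss of cytokine signals raises BH3-only proteins, which occupy the survival proteins or act on BAX and BAK, and the released cytochrome c then joins APAF1 to activate caspase-9. In T cells, BCL-2 is known for the survival of resting cells, BCL-XL is induced by CD28 costimulation, MCL-1 is needed at most stages, and BIM drives much of the death that ends a response. Much of the control of these proteins acts on protein stability and phosphorylation, which transcript levels do not show.

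Expression is given in FPKM, the fragments counted on a gene divided by its length and scaled by library, so levels of different genes can be set side by side. The depth of the libraries is unknown, and values therefore come without counting intervals. Rows of small RNAs held 68.9% to 75.7% of the summed FPKM of the DMSO libraries and 78.1% to 80.3% of the oligomycin libraries, without overlap. Scaling by the full sum would thus differ between the groups, and results scaled without these rows are given below. The median of the tested genes ran from 13.9 to 14.8 FPKM. All 9 T cell markers examined were expressed, with summed levels of 1162 to 1319 FPKM with DMSO and 1063 to 1288 with oligomycin. Of these, Cd28 and Thy1 were lower with oligomycin (adjusted p = 0.0422 and 0.0293) and the other 7 were not called; whether these markers bear on the results below was not tested. Of 16 markers of other cells, 1 had a row, Cd8b1 of CD8 T cells, at 2.63 to 3.12 FPKM with DMSO and 2.41 to 3.30 with oligomycin; the other 15 were not analysed here. In such bulk cultures, fewer cells of a kind and less RNA per cell cannot be told apart. The columns carry a group and a number from 1 to 3, and these numbers name the libraries below.

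The promoter sequences of members picked by their change, called or not, are shown first, to place what follows on the genome. They are the 250 bases before a RefSeq transcript start (GRCm38.p6), written 5′ to 3′ on the strand of the gene, for the members that fell with oligomycin (Bcl2l1 and Bak1) and for the members of the survival and BH3-only classes with the highest oligomycin means relative to DMSO (Bcl2 and Bcl2l11). Capitals mark GC boxes (GGGCGG on either strand), the motif bound by factors of the SP family. The Bcl2l1 window lies at chr2:152831729-152831978 on the minus strand, the Bak1 window at chr17:27028628-27028877 (minus), the Bcl2 window at chr1:106714291-106714540 (minus) and the Bcl2l11 window at chr2:128125788-128126037 (plus).
Bcl2l1: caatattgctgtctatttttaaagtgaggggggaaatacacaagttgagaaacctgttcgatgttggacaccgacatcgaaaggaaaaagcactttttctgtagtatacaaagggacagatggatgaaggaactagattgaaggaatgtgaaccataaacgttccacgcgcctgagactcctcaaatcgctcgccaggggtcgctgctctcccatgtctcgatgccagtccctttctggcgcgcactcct
Bak1: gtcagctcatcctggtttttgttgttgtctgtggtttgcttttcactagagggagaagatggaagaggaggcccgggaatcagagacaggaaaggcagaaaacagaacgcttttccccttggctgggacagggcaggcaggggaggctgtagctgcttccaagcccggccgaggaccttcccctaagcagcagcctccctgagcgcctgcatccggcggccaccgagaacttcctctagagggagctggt
Bcl2: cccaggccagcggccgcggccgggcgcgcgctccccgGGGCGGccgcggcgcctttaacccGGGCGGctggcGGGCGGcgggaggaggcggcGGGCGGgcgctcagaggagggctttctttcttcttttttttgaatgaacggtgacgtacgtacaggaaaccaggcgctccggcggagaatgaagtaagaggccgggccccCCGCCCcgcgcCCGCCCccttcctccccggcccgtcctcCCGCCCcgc
Bcl2l11: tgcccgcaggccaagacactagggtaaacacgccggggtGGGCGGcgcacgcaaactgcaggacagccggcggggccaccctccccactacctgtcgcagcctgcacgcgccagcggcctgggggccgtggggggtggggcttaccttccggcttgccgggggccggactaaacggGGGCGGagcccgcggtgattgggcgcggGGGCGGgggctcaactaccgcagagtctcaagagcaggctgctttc

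The 4 windows differ in base composition. GC content was 47.6% for Bcl2l1, 58.4% for Bak1, 74.8% for Bcl2 and 72% for Bcl2l11, against a median of 52.4% (quartiles 45.2% and 61.2%) over 32851 windows of the same length. The Bcl2 window held 7 GC boxes and the Bcl2l11 window 3, while the windows of Bcl2l1 and Bak1 held 0. RefSeq windows were searched for 8 members, 12 windows in all, and Pmaip1 on chromosome 18 was left out. Of these, 7 windows from 6 members held a GC box, against 32.7% of all windows. The further 2 starts of Bcl2l1 had none either, and Bax, Bid, Mcl1 and 1 of 2 starts of Bad had at least 1. A FOXO motif (GTAAACA), of factors known to induce BIM when cytokine signals fade, lay 227 to 221 bases before the printed Bcl2l11 start. It was absent from the window of the other Bcl2l11 start and is present in 3.17% of all windows. An NF-κB consensus motif, searched on both strands, lay 78 to 69 bases before the Bak1 start and is present in 17.6%. The composite site of CHOP and ATF4 (ATTGCATCA), its shorter core (TGATGNAA), the CRE (TGACGTCA), a STAT motif (TTCNNNGAA), an E2F motif (TTTCCCGC) and an ETS motif (CCGGAAGT) were in 0 of the 12 windows, and in 0.167%, 3.45%, 1.55%, 7.02%, 0.895% and 2.88% of all windows. The motifs were searched on both strands, like the core of the CRE (TGACG), found for Bcl2 alone and in 17.8% of all windows, the hypoxia response core (ACGTG), found for Bax alone and in 16.6%, and the CCAAT box, found for Bcl2l11 and Bad and in 33.8%. The CRE contains its core, so these overlap. A match is a description of letters and not a measured binding site.

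With oligomycin, transcripts of the survival gene Bcl2l1 and of the pore gene Bak1 fell by nearly the same factor, and those of Bax and Bid had nearly equal group means. Means of Bcl2, Mcl1 and Bcl2l11 were higher with oligomycin, but these differences did not pass the test, and 1 of the 3 oligomycin libraries lay inside the DMSO range for each. In limma's test on log2(FPKM + 1) over 9986 genes, with Benjamini-Hochberg adjustment and a threshold of 0.05, 2 of the 9 members were lower and 0 were higher. Among all tested genes 16.1% were lower and 14.0% higher, or 30.2% in either direction. The members' count of 2 of 9 was near these shares. Of all calls 46.6% were higher, against 58.7% when values were scaled without small RNA rows and 57.7% with upper-quartile scaling. At an unadjusted p under 0.05, 1 member was higher (Bcl2) and 2 were lower, against 2056 higher and 2214 lower genes among all tested. The median log2 change of the 9 members was -0.0033, against -0.0044 over all genes. Groups did not overlap for 3 members, all lower with oligomycin (Bcl2l1, Bak1 and Bad), while groups did not overlap for 47.3% of all genes, 24.3% lower and 23.1% higher.

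**Figure D1:**
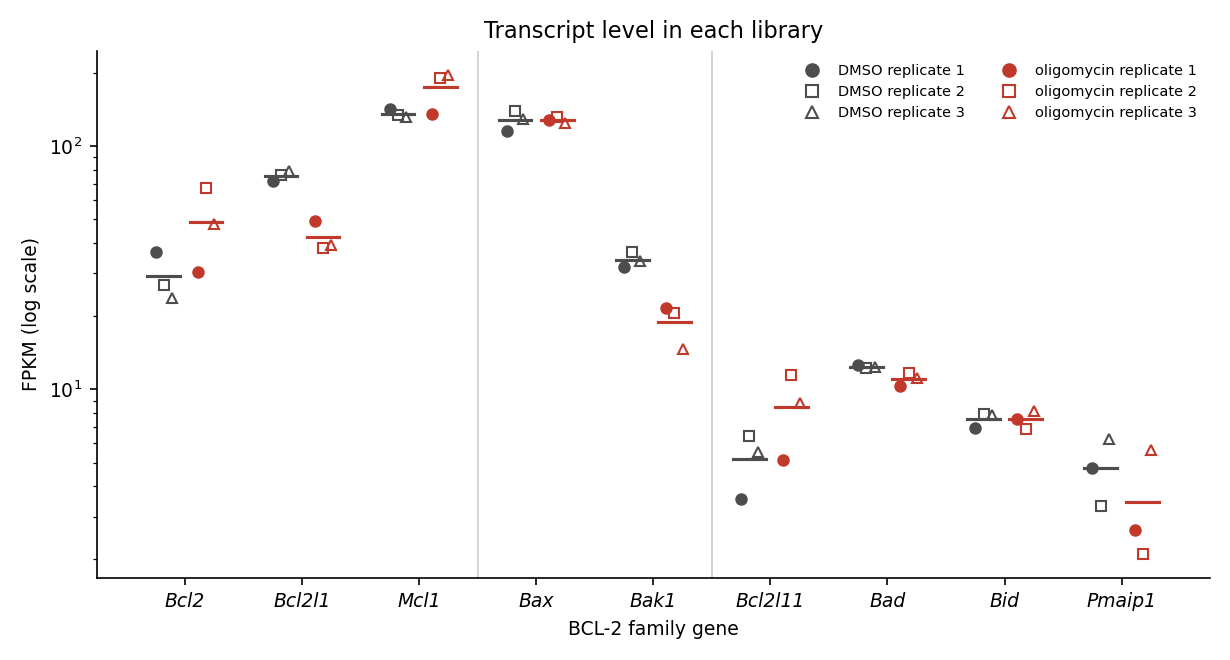
FPKM of the 9 members in each library on a log axis, with DMSO libraries in grey, oligomycin libraries in red and a bar at each group mean. Vertical lines separate survival, pore-forming and BH3-only members. Bcl2l1 and Bak1 are the members whose red points lie well below all grey ones, and oligomycin replicate 1 (filled red circle) lies inside the grey range for Bcl2, Mcl1 and Bcl2l11.

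Mcl1 was the most abundant survival transcript in every library. Mcl1 (XLOC_012847, chromosome 3, 95658721 to 95663178) encodes a short-lived protein that binds BIM, NOXA and BAK. It stood at 142, 134 and 132 FPKM with DMSO and at 136, 191 and 197 FPKM with oligomycin. Oligomycin replicate 1 fell inside the DMSO range and replicates 2 and 3 above it. The means were 136 ± 5.53 and 175 ± 33.3 FPKM (SD, n = 3), and the log2 change of 0.34 (95% interval -0.02 to 0.70) was not called (limma adjusted p = 0.136).

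Bcl2l1 (XLOC_012344, chromosome 2, 152780668 to 152831682) was the second most abundant survival transcript with DMSO and fell with oligomycin. Its levels were 71.9, 76.1 and 79.1 FPKM with DMSO and 49.2, 38.1 and 39.2 FPKM with oligomycin. Every oligomycin library was below every DMSO library, replicate 1 by the least. The mean dropped 1.79-fold, from 75.7 ± 3.63 to 42.2 ± 6.10 FPKM (n = 3), a log2 change of -0.84 (SE 0.13, limma adjusted p = 0.0023). The call held under all 16 alternatives, with log2 changes from -0.95 to -0.71 and adjusted p from 0.00102 to 0.0141.

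Bcl2 (XLOC_000945, chromosome 1, 106538179 to 106714290) had the widest spread of the survival genes relative to its mean, with a coefficient of variation of 23.3% with DMSO and 38.3% with oligomycin. Its FPKM were 36.8, 27.0 and 23.7 with DMSO and 30.4, 67.6 and 47.9 with oligomycin. Oligomycin replicate 2 stood highest and replicate 1 inside the DMSO range, so the groups overlapped. The means of 29.1 ± 6.78 and 48.6 ± 18.6 FPKM (n = 3) differed 1.67-fold, with a log2 change of 0.67 (95% interval 0.05 to 1.29, limma adjusted p = 0.0963). GENCODE M21 places the antisense gene D630008O14Rik over 6.09% of the exon bases of Bcl2, and the strand of the libraries is not given in the sources used here.

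The makeup of the survival class differed between the groups. Bcl2l1 took 28.6%, 32.1% and 33.7% of the summed FPKM of Bcl2, Bcl2l1 and Mcl1 with DMSO and 22.8%, 12.9% and 13.8% with oligomycin. Mcl1 took 56.2% to 56.7% with DMSO and 63.2% to 69.3% with oligomycin, and for both genes the groups did not overlap. The share of Bcl2 was 10.1% to 14.6% with DMSO and 14.1% to 22.8% with oligomycin, ranges that overlapped. The ratio of Bcl2l1 to Bcl2 was 1.96, 2.82 and 3.33 with DMSO and 1.62, 0.564 and 0.818 with oligomycin. In 2 of the 3 oligomycin libraries Bcl2 was thus the more abundant of both transcripts, while Bcl2l1 was so in all 3 DMSO libraries. The sum of the 3 survival genes was 251, 237 and 235 FPKM with DMSO and 216, 296 and 284 FPKM with oligomycin, with oligomycin replicate 1 below and replicates 2 and 3 above the DMSO range. Ratios and shares of members are given as descriptions, with no test.

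**Figure D2:**
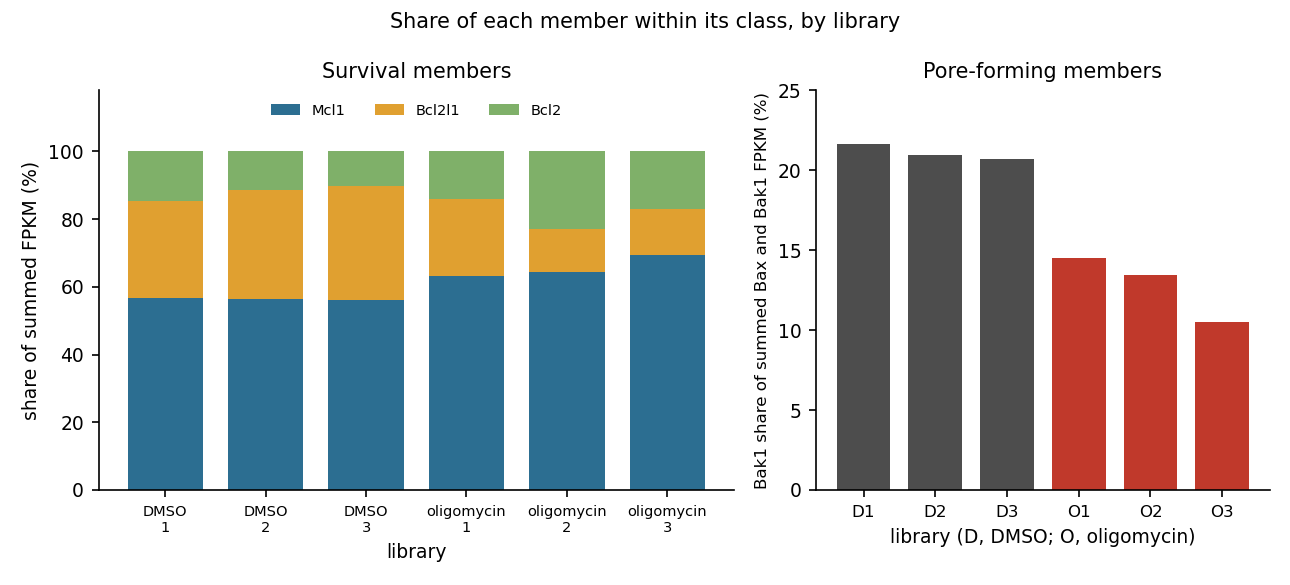
Stacked bars give the share of Mcl1, Bcl2l1 and Bcl2 in their summed FPKM in each library (left, percent), and bars give the share of Bak1 in the summed FPKM of Bax and Bak1 (right, percent). Bcl2l1 takes 28.6% to 33.7% of the survival sum with DMSO and 12.9% to 22.8% with oligomycin, and Bak1 takes 20.7% to 21.7% and 10.5% to 14.5% of the pore-forming sum.

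Of the pore-forming pair, Bak1 fell and Bax did not. Bak1 (XLOC_008898, chromosome 17, 27018035 to 27036378) encodes the pore former that sits in the mitochondrial membrane even in healthy cells. It stood at 32.0, 36.9 and 33.8 FPKM with DMSO and 21.7, 20.5 and 14.6 FPKM with oligomycin. The groups did not overlap, and oligomycin replicate 3 was lowest. The mean dropped 1.81-fold, from 34.2 ± 2.47 to 19.0 ± 3.80 FPKM (n = 3), a log2 change of -0.84 (SE 0.16, limma adjusted p = 0.00555). That call held under all 16 alternatives, with log2 changes from -0.94 to -0.67 and adjusted p from 0.00314 to 0.0226. The locus given for Bak1 in the table is wider than the gene in GENCODE M21 (27019810 to 27029009), where Ggnbp1 on the opposite strand covers 25.5% of the exon bases of Bak1. Reads of both could not be told apart if strand was not used.

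Bax (XLOC_019032, chromosome 7, 45461695 to 45466898), whose protein moves from the cytosol to mitochondria when activated, was near Mcl1 in level with DMSO and below every Mcl1 value with oligomycin. Its FPKM were 116, 139 and 129 with DMSO and 128, 132 and 124 with oligomycin. All oligomycin values lay inside the DMSO range. The means were 128 ± 11.9 and 128 ± 3.91 FPKM (n = 3), with a log2 change of 0.0050 (95% interval -0.26 to 0.27, limma adjusted p = 0.977). GENCODE M21 places Gm45808, on the same strand, over 12.2% of the exon bases of Bax. The ratio of Bax to Bak1 was 3.62, 3.78 and 3.82 with DMSO and 5.90, 6.43 and 8.50 with oligomycin, without overlap.

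Setting survival against pore-forming transcripts, the ratio of Bcl2l1 to Bax was 0.622, 0.547 and 0.612 with DMSO and 0.384, 0.289 and 0.316 with oligomycin. The ratio of Bcl2 to Bax was 0.318, 0.194 and 0.184 with DMSO and 0.237, 0.511 and 0.386 with oligomycin. The first ratio was lower in every oligomycin library, and the second overlapped. Summed over the classes, the survival genes stood at 1.70, 1.35 and 1.44 times the sum of Bax and Bak1 with DMSO and at 1.44, 1.94 and 2.05 times with oligomycin. Oligomycin replicate 1 lay inside the DMSO range and replicates 2 and 3 above it.

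The BH3-only members were the least abundant class. Bcl2l11 (XLOC_011209, chromosome 2, 128126038 to 128162547), whose protein binds all survival proteins of the family, stood at 3.55, 6.45 and 5.55 FPKM with DMSO and at 5.14, 11.4 and 8.77 FPKM with oligomycin. Oligomycin replicates 2 and 3 were above every DMSO library and replicate 1 was among them. The means of 5.18 ± 1.48 and 8.45 ± 3.16 FPKM (n = 3) differed 1.63-fold, with a log2 change of 0.58 (95% interval -0.04 to 1.21, limma adjusted p = 0.14). This difference was not called, but it was with the column number as a replicate block, a fit given at the end.

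Pmaip1 (XLOC_009516, chromosome 18, 66458604 to 66465558) encodes NOXA, which binds chiefly MCL-1 and is a known target of p53 and of stress signals. It stood at 4.74, 3.31 and 6.25 FPKM with DMSO and 2.64, 2.11 and 5.61 FPKM with oligomycin. Oligomycin replicates 1 and 2 were below the DMSO range and replicate 3 inside it. The log2 change of -0.42 (95% interval -1.10 to 0.26) was not called (limma adjusted p = 0.311), and only 16.4% of the tested genes had a lower mean over the libraries. The ratio of Mcl1 to Pmaip1 was 21.1 to 40.5 with DMSO and 35.1 to 90.5 with oligomycin, ranges that overlapped.

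Bad and Bid differed little between the groups. Bad (XLOC_009896, chromosome 19, 6938070 to 6951893), whose protein is held inactive by survival kinases such as AKT, stood at 12.5, 12.3 and 12.3 FPKM with DMSO and 10.3, 11.7 and 11.2 FPKM with oligomycin. The groups did not overlap, but the log2 change of -0.15 (95% interval -0.40 to 0.095) was not called (limma adjusted p = 0.313). The row of Bad shares its locus with Gpr137 on the opposite strand, which covers 20.5% of its exon bases in GENCODE M21 and whose own row had a log2 change of -0.16 (adjusted p = 0.394). Bid (XLOC_017396, chromosome 6, 120893119 to 120916820), which links death receptors to mitochondria after cleavage by caspase-8, stood at 6.91, 7.91 and 7.83 FPKM with DMSO and 7.54, 6.89 and 8.17 FPKM with oligomycin. The groups overlapped, and the log2 change was -0.0033 (95% interval -0.28 to 0.28, limma adjusted p = 0.986). Bcl2l13 on the opposite strand covers 17.7% of the exon bases of Bid.

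**Figure D3:**
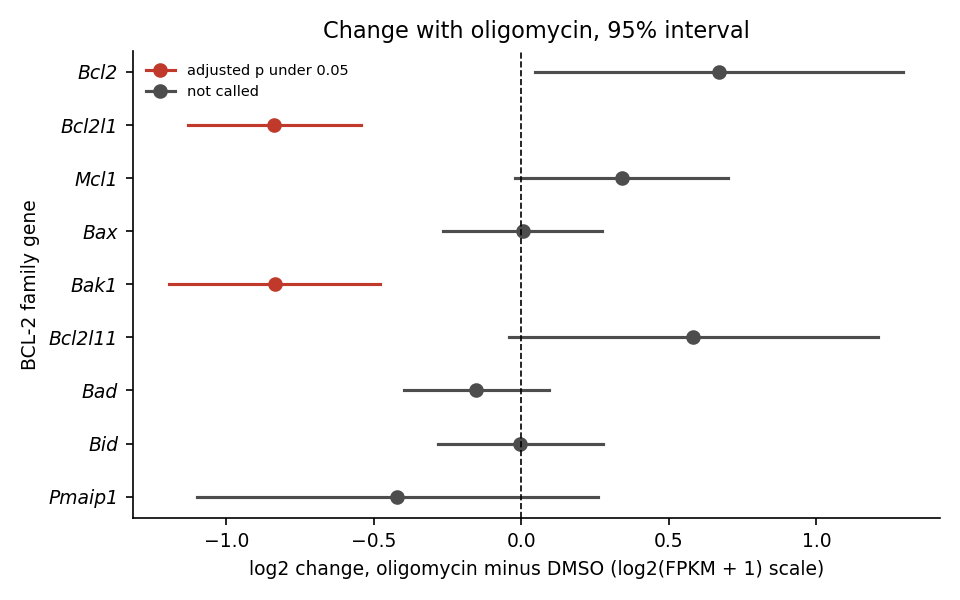
Fitted log2 change of each member, oligomycin minus DMSO, on the log2(FPKM + 1) scale, with its 95% interval. Red marks the genes with an adjusted p under 0.05, Bcl2l1 and Bak1, both at -0.84, and the intervals of the other genes except Bcl2 include 0.

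Across the family the oligomycin libraries did not move alike. For Bcl2, Mcl1 and Bcl2l11, oligomycin replicate 1 lay inside the DMSO range and replicates 2 and 3 above it. This pattern was chosen after the values were seen, and it held for 4.33% of all tested genes, its mirror image below the DMSO range for 5.59% and for 0 members. Without oligomycin replicate 1 these 3 members were called higher by limma, Bcl2 with a log2 change of 0.97 (adjusted p = 0.0132), Mcl1 with 0.51 (adjusted p = 0.0126) and Bcl2l11 with 0.86 (adjusted p = 0.0252). In that setting 1387 of 9915 genes were called higher and 1861 lower. The pattern that picked the 3 members favours such calls, so they do not test a rise. With any other library left out, 0 members were called higher. Bcl2l1 and Bak1 were below the DMSO range in all 3 oligomycin libraries, replicate 1 included.

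The ratio of Bcl2 to its ligand gene Bcl2l11 varied little among the oligomycin libraries, an observation made after the values were seen. Bcl2 stood at 5.91, 5.90 and 5.46 times Bcl2l11 in them, although Bcl2 itself ranged from 30.4 to 67.6 FPKM there. With DMSO the ratio was 10.3, 4.19 and 4.27, a range widened by replicate 1 that enclosed the oligomycin values. The ratio of Bcl2l1 to Bcl2l11 was 20.2, 11.8 and 14.2 with DMSO and 9.57, 3.33 and 4.47 with oligomycin, without overlap. The ratio of Mcl1 to Bcl2l11 was 40.1, 20.8 and 23.7 with DMSO and 26.5, 16.7 and 22.5 with oligomycin, with overlap.

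**Figure D4:**
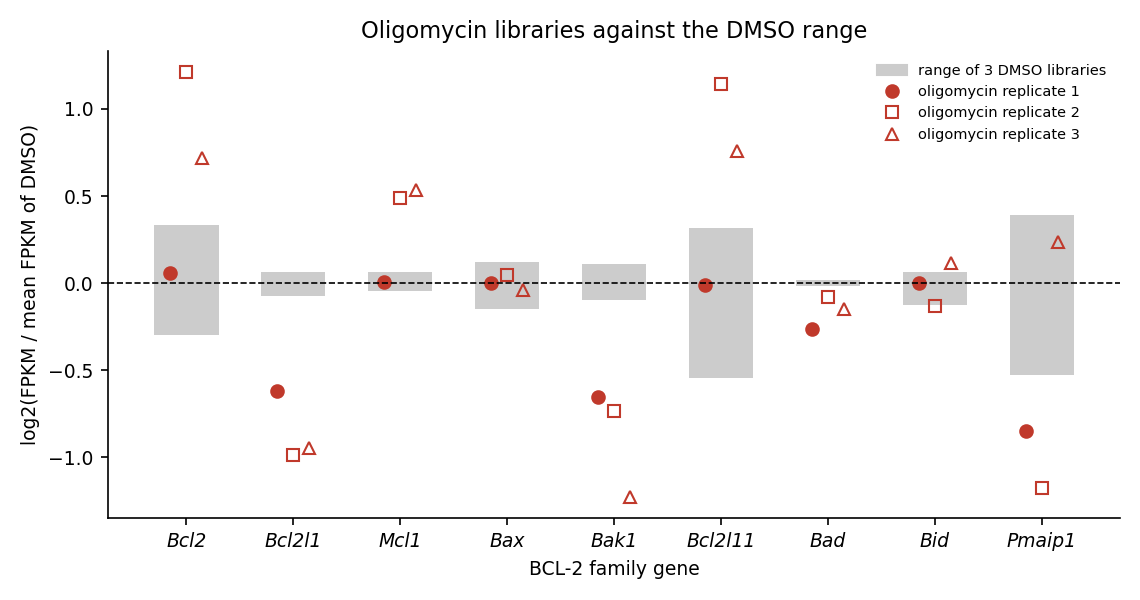
Level of each member in the 3 oligomycin libraries (red symbols) as log2 of the FPKM over the DMSO mean, with the range of the 3 DMSO libraries as a grey box. Oligomycin replicate 1 (filled circle) lies within the box for Bcl2, Mcl1 and Bcl2l11, where replicates 2 and 3 lie above it, and all 3 symbols lie below the box for Bcl2l1, Bak1 and Bad.

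The order of the levels changed around Bcl2l1. With DMSO the order from high to low was Mcl1, Bax, Bcl2l1, Bak1, Bcl2, Bad, Bid, Bcl2l11 and Pmaip1, and the neighbours whose libraries overlapped were Mcl1 and Bax, Bak1 and Bcl2, and Bcl2l11 and Pmaip1. With oligomycin it was Mcl1, Bax, Bcl2, Bcl2l1, Bak1, Bad, Bcl2l11, Bid and Pmaip1, with overlap between Bcl2 and Bcl2l1, Bad and Bcl2l11, and Bcl2l11 and Bid. Mcl1 and Bax had higher means over the libraries than 95.3% and 94.1% of the tested genes.

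The genes most like each called member were sought among 7705 candidates by Pearson's r of log2(FPKM + 1) over the 6 libraries, which fall into groups, so that r follows the group difference in large part. For Bcl2l1 they were 4930427A07Rik (r = 0.9997) and Immt (r = 0.9989), an organizer of mitochondrial cristae. Immt fell from 58.6 ± 2.58 to 39.4 ± 3.98 FPKM (log2 change -0.56, limma adjusted p = 0.00817). For Bak1 they were D8Ertd738e (r = 0.998) and Cuedc2 (r = 0.997, not itself called, adjusted p = 0.0501). No p is attached to these values, which are the highest of many.

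Other genes of the BCL-2 family, and genes listed with it, changed in both directions. Of 12 measured genes of a list of 20, 2 rose (Bbc3 and Bcl2a1b) and 3 fell (Bnip3, Bnip3l and Bnip2). The other 7 were not called by limma. Among all tested genes 14.0% were higher and 16.1% lower. The median log2 change of the list was -0.16, against -0.0044 over all genes. Bbc3, the gene of the BH3-only protein PUMA, stood at 5.14, 5.06 and 4.91 FPKM with DMSO and at 16.7, 26.8 and 21.3 FPKM with oligomycin. Every oligomycin library was far above the DMSO range. Its mean rose 4.29-fold (log2 change 1.88, SE 0.17, adjusted p = 0.000148), so with oligomycin PUMA transcripts were higher in every library than those of Bcl2l11, Bad, Bid or Pmaip1, and with DMSO those of Bad and Bid were higher than PUMA's. Bcl2a1b, which encodes the survival protein A1, rose from 24.6 ± 2.84 to 38.0 ± 6.45 FPKM (adjusted p = 0.0166), while Bcl2a1d stood at 8.76 ± 2.0 and 8.55 ± 3.36 FPKM (adjusted p = 0.851). The A1 genes are near-identical copies between which reads may be split, so both values are uncertain. The call of Bcl2a1b was lost without DMSO replicate 2 (adjusted p = 0.0596) or DMSO replicate 3 (0.0605). Bnip3 and Bnip3l, whose proteins are mitophagy receptors of the outer membrane, fell 6.74-fold and 1.80-fold (adjusted p = 7.23e-05 and 0.00359). Bnip2, the gene of another BNIP protein, fell from 76.3 ± 2.98 to 54.9 ± 2.51 FPKM (adjusted p = 0.0119, and 0.0628 without DMSO replicate 3).

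Genes of the apoptosome, of caspases and of their regulators moved in both directions. Of 30 measured genes of the apoptosome and caspase list (31 genes), 9 fell, 3 rose and 18 were not called by limma, where 16.1% of all tested genes were lower and 14.0% higher. The list's median log2 change was -0.22, against -0.0044 over all genes. When values were scaled without small RNA rows or to the upper quartile, 6 of its genes were lower and 5 higher. Casp6, an effector caspase, fell 2.12-fold, from 14.5 ± 0.815 to 6.84 ± 0.417 FPKM (adjusted p = 0.000544). Upstream, Apaf1, the scaffold of the apoptosome, and Casp9, its initiator caspase, had log2 changes of -0.28 and -0.38 and were not called (adjusted p = 0.0854 and 0.089). Cycs, the cytochrome c gene, was listed at only 1.12 ± 0.313 and 2.06 ± 0.968 FPKM (adjusted p = 0.18), a gene with many processed copies among which reads may be split.

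Some transcripts of proteins released from mitochondria and of caspase inhibitors also differed. Htra2, a protease of the intermembrane space that can be released to oppose caspase inhibitors, fell from 30.1 ± 2.54 to 14.4 ± 1.41 FPKM (limma adjusted p = 0.000687). Endog, a mitochondrial nuclease, fell 1.76-fold (adjusted p = 0.00823) and Aifm1, a flavoprotein of the intermembrane space, 1.39-fold (adjusted p = 0.0359). Diablo, of the same list, went the other way, from 32.8 ± 2.96 to 40.9 ± 1.65 FPKM without overlap, but was not called (adjusted p = 0.0642). It was called higher under quantile, small RNA and upper-quartile rescaling (adjusted p = 0.0215, 0.0186 and 0.0211). Birc5 (survivin), which also serves in mitosis, fell 3.82-fold from 139 ± 17.1 FPKM (adjusted p = 5.28e-05). Cflar, the gene of the caspase-8 inhibitor c-FLIP, rose from 15.9 ± 1.82 to 27.2 ± 0.587 FPKM (adjusted p = 0.00249), while Casp8 fell from 61.1 ± 3.70 to 42.1 ± 5.63 FPKM (adjusted p = 0.0149). Xiap, the direct inhibitor of caspases, stood at 14.5 ± 1.60 and 14.2 ± 0.721 FPKM (adjusted p = 0.925). Birc3 and Vdac1, a ubiquitin ligase and a channel of the outer membrane, had log2 changes of -0.35 and -0.60 (adjusted p = 0.0333 and 0.0364), and Birc6 rose 1.28-fold (adjusted p = 0.0365).

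Several of these calls were narrow. Aifm1, Birc3 and Vdac1 each lost their call without any of 5 of the 6 libraries, all but oligomycin replicate 1 (adjusted p up to 0.122, 0.112 and 0.123), and under quantile, small RNA or upper-quartile rescaling. Birc6 lost it without any of the 6 libraries (adjusted p from 0.0509 to 0.129), and Casp8 without DMSO replicate 2 (0.0564) or oligomycin replicate 3 (0.0545). The list had 5 lower genes without DMSO replicate 2 or oligomycin replicate 3. Without oligomycin replicate 1 it had 11 lower and 5 higher genes. With each library left out in turn, 7 of its 12 called genes kept their call.

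Among 32 genes known to act on the members, all measured, 8 rose, 3 fell and 21 were not called by limma. Of all tested genes 14.0% were higher and 16.1% lower. The list's median log2 change was 0.03, against -0.0044 over all genes. Ddit3, the gene of CHOP, which is known to induce Bcl2l11 and Bbc3 and to repress Bcl2, stood at 12.8, 36.6 and 20.95 FPKM with DMSO and 67.1, 132 and 83.7 FPKM with oligomycin. All oligomycin libraries were above all DMSO libraries. Its mean rose 4.01-fold (adjusted p = 0.00431). Atf4, which encodes its upstream activator, rose 1.49-fold (adjusted p = 0.0122), and Trib3, a target of both, 5.86-fold (adjusted p = 6.82e-05). Foxo1 and Foxo3, the genes of FOXO factors known to act on Bcl2l11, rose 1.59-fold and 1.47-fold (adjusted p = 0.00431 and 0.0119). Trp53 stood at 54.3 ± 2.72 and 44.7 ± 6.50 FPKM (adjusted p = 0.136).

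Receptors and kinases of the survival signals moved in both directions. Il2ra, a receptor subunit for IL-2, fell 1.74-fold (limma adjusted p = 0.00817) and Akt1, a kinase that phosphorylates BAD and FOXO factors, from 70.0 ± 5.53 to 44.6 ± 6.23 FPKM (adjusted p = 0.00871). Pim2, a kinase that also phosphorylates BAD, fell by 0.46 on the log2 scale (adjusted p = 0.0357). Akt2, of the same list, went the other way from Akt1, from 22.9 ± 1.25 to 28.4 ± 2.19 FPKM without overlap. Akt2 was not called (limma adjusted p = 0.0742). It was called higher under quantile, small RNA and upper-quartile rescaling (adjusted p = 0.0311, 0.0265 and 0.0238). Il6st, the shared receptor subunit for IL-6, rose 2.08-fold (adjusted p = 0.0136) and Stat5a, a signal transducer of IL-2, 1.41-fold (adjusted p = 0.0226). Il7r, the receptor chain for IL-7, stood at 17.2, 6.94 and 8.92 FPKM with DMSO and 4.89, 8.46 and 5.66 FPKM with oligomycin, with overlap (adjusted p = 0.135). Fbxw7, which encodes a ubiquitin ligase subunit for MCL-1, rose 1.39-fold (adjusted p = 0.0292). Of the 11 called genes of this list, 6 kept their call with each library left out in turn. Foxo3 lost it without DMSO replicate 3 (0.0527), Atf4 without DMSO replicate 1 or 3 (0.0542 and 0.054), and Stat5a in 3 such settings (0.0899 and 0.0704 without the same DMSO libraries, 0.0546 without oligomycin replicate 2). For Fbxw7 it was lost without DMSO replicate 1 (0.0995), without DMSO replicate 3 (0.0604) and without oligomycin replicate 3 (0.0923). Pim2 lost it without any library but the second of each group (0.0765 to 0.121), and when scaled to the upper quartile (0.0791) or without small RNA rows (0.0893). The list had 5 rising genes without DMSO replicate 1 and 4 without DMSO replicate 3.

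**Figure D5:**
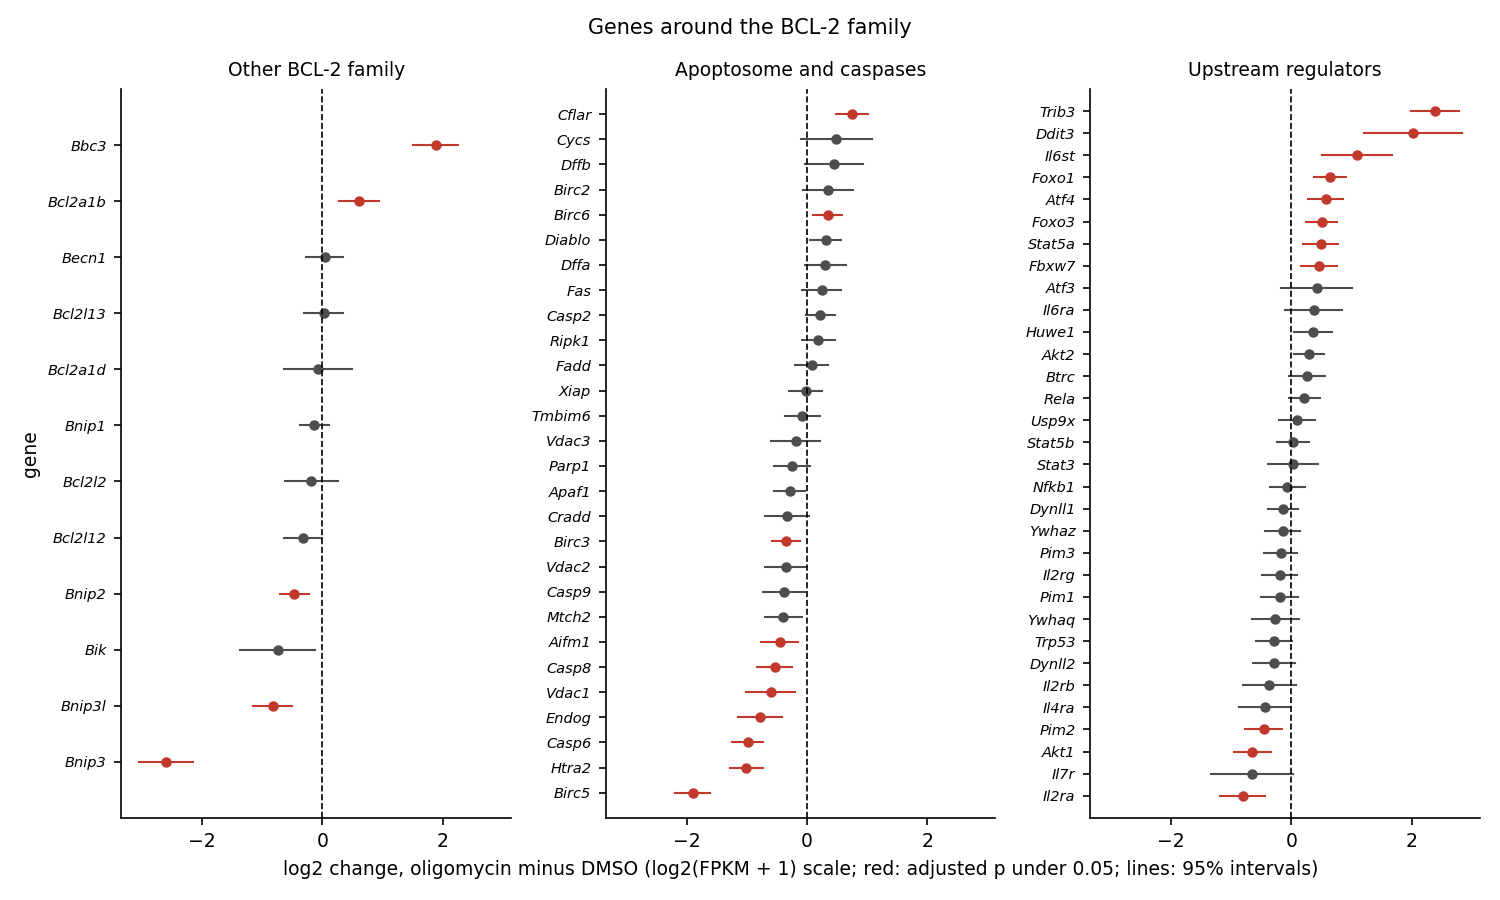
Fitted log2 change, oligomycin minus DMSO, with 95% intervals for measured genes of the other BCL-2 family, apoptosome and caspase, and upstream regulator lists, ordered by change within each list. Red marks an adjusted p under 0.05, and Bbc3 (1.88) and Bnip3 (-2.60) stand at the ends of the other BCL-2 family genes.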

How the data were processed

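The authors deposited a table of FPKM, with a column for each library. Per the submitters' processing notes the mouse build was GRCm38 (mm10), and the tools were Cuffdiff 2.2.1.3, Cuffnorm 2.2.1.1, TopHat2 2.1.0 and Cufflinks 2.2.1.0. The sources used here give no annotation, filter, strand or scaling between libraries. The low values of a pair of libraries shared no common step, so reads were not recovered.

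The test was limma (version 3.58.1, under R 4.3.3) on log2(FPKM + 1), with an intensity trend and the group alone, 2-sided, adjusted over the 9986 rows with at least 1 FPKM in at least 3 of 6 libraries. The pseudocount understates changes of low genes. All 9 members passed this filter. The procedure was tested on simulated data. Fold values are ratios of mean FPKM, errors are SD or SE. The members, the 3 gene lists and the marker lists were chosen with earlier results of these data known. The named genes are all members, the called genes of each list, 13 list genes named whatever their p, and the genes most like a called member. Diablo and Akt2 were added after their values were seen. Of the list genes, 2 are counted but not reported by name here or plotted. Titles number the samples of each group 17, 42 and 43, without saying what the numbers mark. The columns are numbered 1 to 3, so columns were mapped to groups only. Alternatives were other pseudocounts, filters and scalings, no trend, rows sharing a locus left out, a replicate block and each library left out.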

Additional observations from a re-analysis of the deposited data

How the results depend on the processing

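Bcl2l1 and Bak1 stayed lower and called under every alternative run, so 2 members were called lower each time, and Bad and Pmaip1 kept their sign without being called in the 15 alternatives that tested each. Without 1 library each, 1769 to 3248 genes were called, 780 to 1387 higher and 989 to 1861 lower, against 3013, 1403 and 1610 with all; the fewest came without DMSO replicate 3 (1769), then without DMSO replicate 1 (1887). Of all calls 46.6% were higher, 58.7% when scaled without small RNA rows and 57.7% with upper-quartile scaling, settings that moved the median log2 change of all genes by 0.0932 and 0.0824. Members called higher numbered 0 to 3 with 1 library left out, the 3 all without oligomycin replicate 1. Over these 6 settings the log2 change ran from 0.40 to 0.97 for Bcl2, from 0.24 to 0.51 for Mcl1, from 0.35 to 0.86 for Bcl2l11, from -0.066 to 0.067 for Bax and from -0.058 to 0.052 for Bid. Bid stood at 0.086 when scaled without small RNA rows and 0.075 with upper-quartile scaling, never called. Of the other named genes, Bcl2a1d (-0.07 with all libraries) stood at 0.021 and 0.011 under these scalings and at -0.34 to 0.14 with 1 library left out. Xiap (-0.02) stood at 0.077 and 0.066 and at -0.11 to 0.030.

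With the column number as a replicate block, 1 member was called higher, Bcl2l11 (log2 change 0.58, adjusted p = 0.013), and 3532 genes in all. The columns do not say that equal numbers mark a shared source. Deviations of same-numbered libraries from their group means correlated at 0.0556, 0.247 and 0.132. Those of differently numbered libraries correlated at -0.158, 0.117, -0.0538, -0.216, -0.00022 and -0.120. Oligomycin replicate 1 correlated best with DMSO replicate 3 (0.117). Pairing was therefore neither established nor excluded, and it was not assumed. The depth is unknown, and 3 libraries per group limit the precision, most for Bcl2, Bcl2l11 and Pmaip1.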
